A study of Mus musculus with 9 samples.

Results

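The genes described here are those that separated all 6 tumor libraries of the study from all 3 of its control libraries: in tumor epithelial cells of 2 genotypes, every tumor library lay above, or every tumor library lay below, all 3 libraries of normal ear keratinocytes. Of 25700 listed genes, 14508 had enough counts to be tested, and 2653 of these (18.3%) formed the shared program, which required both this separation and a call in the test of the tumor average against the controls. The program held 1586 genes above the controls (10.9% of the genes tested) and 1067 below (7.35%).

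The 3 tumors called ALK came from ears of ALKF1174L Lgr5-CreERT2 mice, and the 3 called ALKKRAS came from ears of ALKF1174LKrasG12D Lgr5-CreERT2 mice. The 3 controls were ear skin keratinocytes of Cre-negative siblings. All mice were C57BL/6 mixed with 129/SV, with 1 library per mouse. Cre activity was induced with topical 4-hydroxytamoxifen (4-OHT) when the mice were 6 to 12 weeks old, and tumor mice were killed when termination criteria were reached, so that age at collection varied and is not given per mouse. Whether the controls also received 4-OHT is not given in the sources used here. Cells were sorted as Epcam+ CD31- CD45- CD140a- before poly-A RNA sequencing. These groups are limited as models, because the Lgr5 promoter switches the alleles on in hair follicle stem cells, whereas the controls were keratinocytes of the whole ear, and tumor against normal, Cre against no Cre and time since induction all changed together between the groups.

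ALK is a receptor tyrosine kinase related to the insulin receptor, and the F1174L change keeps its kinase active without ligand. The normal epidermis renews from basal keratinocytes attached to the basement membrane, which stop dividing, change their keratins and build a cornified envelope as they move outwards. After wounding, keratinocytes switch on a separate set of keratins, proteases, cytokines and growth factors, and squamous carcinomas of the skin are known to express many of the same genes. Hair follicle stem cells and the outer root sheath carry keratins of their own, among them Krt15.

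Library depth ran from 14153431 to 32363999 counts, so that 3 counts, the smallest level taken as detectable, averaged 0.131 CPM (counts per 1e6 counts, scaled with edgeR's TMM factors of 0.921 to 1.075) over the controls. That floor and the counting intervals given below cover counting error only. The mouse Alk gene had 0 counts in each control and between 1 and 11 counts in each tumor. The F1174L allele is named by the human residue, whereas reads were counted on the mouse genome. These counts were therefore not taken as a measure of the transgene, and the allele was not checked. Control library 1 stood apart from the other controls on the second principal component (16.2% of the variance). The summed level of 4 Y-linked genes was 188 to 224 CPM in the controls and 158 to 201 CPM in 3 of the 6 tumors (ALK 1, ALK 3 and ALKKRAS 2), but 0 in ALK 2 and ALKKRAS 1 and 0.0428 CPM in ALKKRAS 3, so sex was unbalanced between the groups. A fit with those 3 tumors alone keeps 1 ALKKRAS library. In its calls, sex and the smaller number of libraries cannot be told apart. All 2653 program genes kept the sign of their log2 fold change, which their separation made near certain. The median log2 fold changes of the program were 2.33 above and −1.16 below. In that fit none of the pathway and gene family lists described below had more members in the program than with all libraries, and most had fewer: the list of the cornified envelope and barrier had 2 above, the matrix metalloproteinases 2 above, the EGF family 1 above, JAK-STAT signaling 1 above and 0 below, nuclear receptors 2 below and the circadian clock 1 below.

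Without regard to the call, 2088 genes (14.4%) had all tumors above all controls and 1500 (10.3%) had all tumors below. The test of the tumor average, with both genotypes weighted equally, called 1722 genes higher (11.9%) and 1518 lower (10.5%) at a Benjamini-Hochberg adjusted p below 0.05 (edgeR's quasi-likelihood test) and a log2 fold change beyond 0.5. Of the separated genes, 502 above and 433 below were not called, and 136 genes called higher and 451 called lower were not separated. Separation uses the same contrast as the test and is therefore given as a description. Every fold change below is on the log2 scale, tumor minus control, with its SE, over 6 tumors and 3 controls. Every adjusted p comes from the fit across all 14508 genes.

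The increases were larger than the decreases. The median log2 fold change was 2.25 above (2.24 in ALK and 2.31 in ALKKRAS) and −1.12 below (−1.16 and −1.08), beside −0.04 over all genes tested. Of the genes above the controls, 128 had no count in any control and 96 had 1 to 3 counts in all controls together, and with the 128 set at their bound against the floor the median was 2.17. A change of at least 5 on the log2 scale was fitted for 292 genes above but for 16 below. Genes with no count in any control enter the 292 at their fitted change, which is not a measured size, and the bound was not applied there. In 498 genes above, every control lay under 1 CPM, whereas 42 genes below had every tumor under 1 CPM. The gap between the sides, the lowest library of the higher side over the highest library of the lower side with 0.5 CPM added to each, was at least 4-fold for 192 genes above and for 10 below. Within the program, the median log2 range over the 6 tumors was 1.05 for the genes above and 0.74 for the genes below, and over the 3 controls 0.58 in both.

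**Figure D1:**
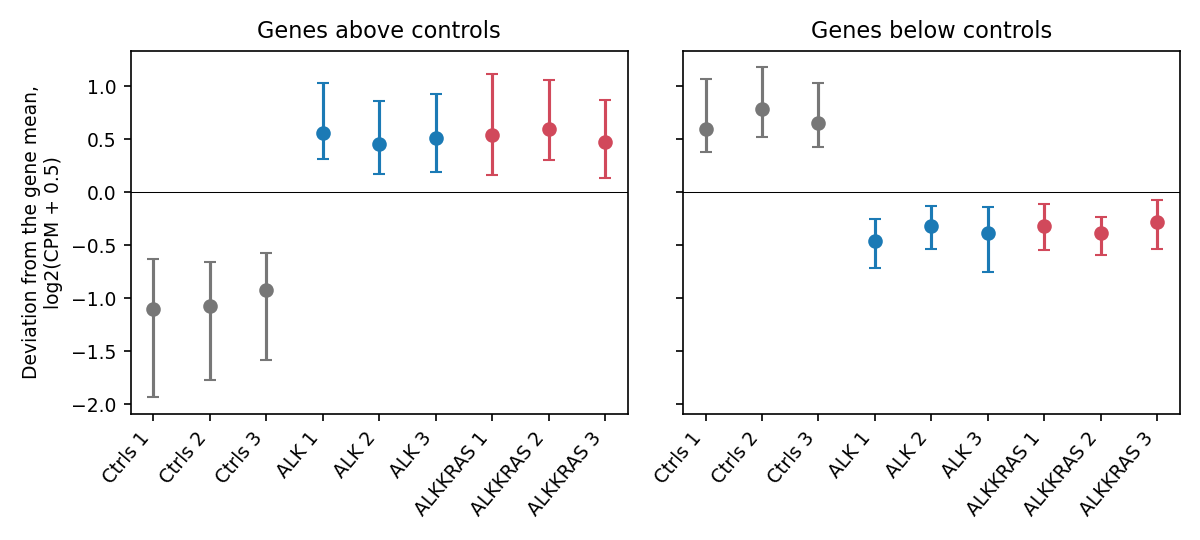
For each of the 9 libraries, the dot is the median and the bar spans the quartiles, over the program genes, of the library's log2(CPM + 0.5) minus the gene's mean over all libraries, with the 1586 genes above and the 1067 genes below in separate panels. The 3 controls sat between −1.11 and −0.92 for the genes above while the tumors of both genotypes sat between 0.45 and 0.60, and for the genes below the controls sat between 0.60 and 0.79 and the tumors between −0.46 and −0.28.

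Among genes with a mean of at least 10 CPM, the widest gap belonged to Prkg2, a cGMP-dependent protein kinase. It measured 0, 0.379 and 0.122 CPM in controls, 76, 56.6 and 92.3 CPM in ALK tumors and 49, 84.1 and 80.8 CPM in ALKKRAS tumors, a gap of 56.4-fold (log2 fold change 8.90 ± 0.69, adjusted p = 0.000261). Tspan12, a tetraspanin membrane protein that acts in Norrin signaling through Frizzled receptors, measured 0, 0.324 and 0.365 CPM in controls, 82.6, 51 and 46.2 CPM in ALK tumors and 33.3, 60.3 and 58.4 CPM in ALKKRAS tumors (log2 fold change 7.94 ± 0.71, adjusted p = 0.000398). Both were close to absent in every control, and the 2 tumor genotypes overlapped. Procr, the endothelial protein C receptor and a marker of several epithelial progenitor populations, measured 0.0366, 1.08 and 1.05 CPM in controls, 285, 133 and 45.3 CPM in ALK tumors and 194, 159 and 51.4 CPM in ALKKRAS tumors (log2 fold change 7.68 ± 1.09, adjusted p = 0.00235). Timp1, a secreted inhibitor of matrix metalloproteinases, measured 1.39, 0.216 and 0.567 CPM in controls, 123, 75.6 and 104 CPM in ALK tumors and 159, 109 and 46.1 CPM in ALKKRAS tumors (log2 fold change 7.08 ± 0.69, adjusted p = 0.000508). Procr varied more among tumors than Prkg2 did, with its lowest tumors at 45.3 and 51.4 CPM, yet its lowest tumor still lay 29-fold above its highest control.

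Car2, a cytosolic carbonic anhydrase, measured 0.146, 1.08 and 0.0405 CPM in controls, 152, 200 and 122 CPM in ALK tumors and 43.4, 38.7 and 46.6 CPM in ALKKRAS tumors (log2 fold change 7.73 ± 0.77, adjusted p = 0.000552). All 3 ALK tumors lay above all 3 ALKKRAS tumors for this gene. Il19, a cytokine of the IL-10 family, measured 0.549, 0.108 and 0.0405 CPM in controls, 279, 49.8 and 31.7 CPM in ALK tumors and 34.2, 79.3 and 25 CPM in ALKKRAS tumors (log2 fold change 8.20 ± 1.21, adjusted p = 0.00269). Nrg1, a ligand of the ErbB3 and ErbB4 receptors, measured 0.0732, 1.41 and 1.42 CPM in controls, 191, 98.5 and 43.6 CPM in ALK tumors and 74.9, 105 and 51.8 CPM in ALKKRAS tumors (log2 fold change 6.62 ± 0.90, adjusted p = 0.00191). Sulf1, an enzyme that removes sulfate groups from extracellular heparan sulfate, measured 0.842, 0.0541 and 0.243 CPM in controls, 34.7, 56.3 and 36.8 CPM in ALK tumors and 68.8, 62.8 and 28.6 CPM in ALKKRAS tumors (log2 fold change 6.86 ± 0.70, adjusted p = 0.000592). None of these genes reached 1.5 CPM in any control.

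**Figure D2:**
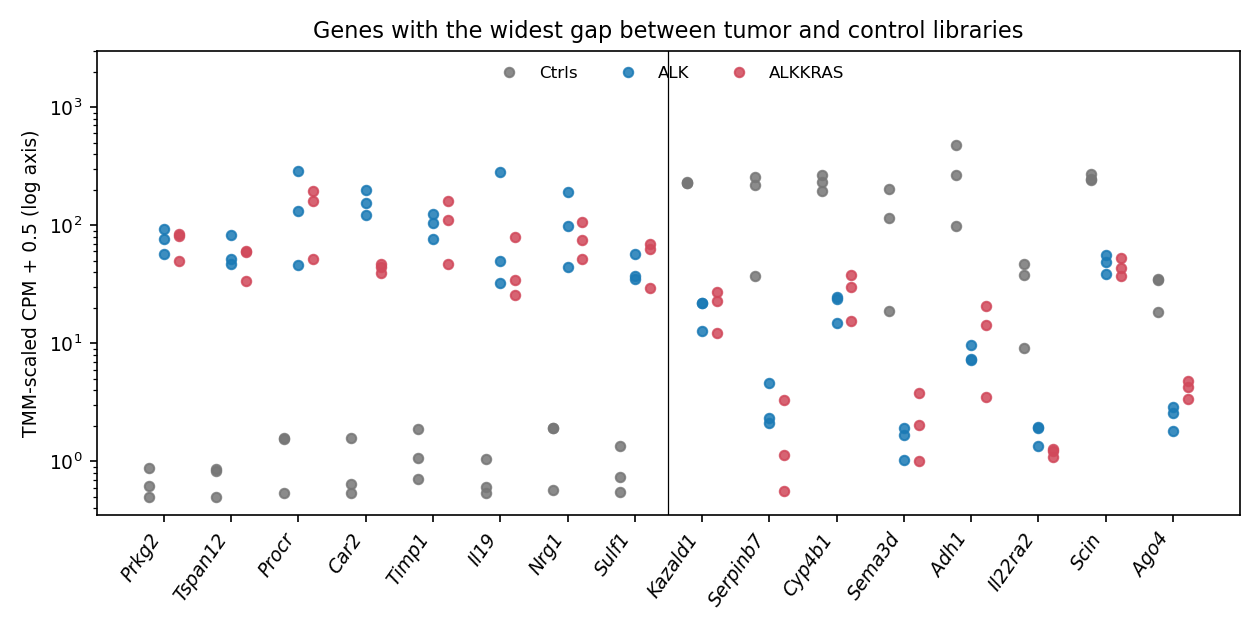
Each point is 1 library's CPM + 0.5 on a log axis, for 8 of the program genes with the widest gaps above the controls and 8 of those with the widest gaps below, colored by group. In the genes above, the controls sit near the bottom of the axis and all 6 tumors lie well above them, at about 25 CPM or more. In the genes below the order is turned.

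No read was found in any control for 7 of the genes named by their fold change. Measured against the floor of 3 counts per library, Dynap, a membrane protein gene on chromosome 18, was at least 310.4-fold higher in the tumors on average, Cxcl5, a neutrophil-attracting chemokine, at least 300.1-fold, and Prl2c3, a member of the prolactin family of proliferins, at least 248-fold. Cxcl5 measured 111, 12.2 and 6.41 CPM in the ALK and 43.2, 50 and 13.5 CPM in the ALKKRAS tumors, and Prl2c3 measured 31.7, 12.6 and 21.4 and 87.9, 27.3 and 14 CPM. Serpinb3d, a serine protease inhibitor, was at least 129-fold higher, with 46.5, 8.39 and 37.8 CPM in the ALK but 1.34, 4.08 and 3 CPM in the ALKKRAS tumors. Slc38a5, a glutamine transporter, was at least 98.1-fold higher, Ptger2, a receptor for prostaglandin E2, at least 85.5-fold, and Klra4, a member of the Ly49 receptor family, at least 84.1-fold. Prl2c3, Serpinb3d and Klra4 belong to families of near-identical copies, so that reads may have been divided between members and their levels are uncertain.

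A further set had 1 to 3 reads over all 3 controls, and here the ratio of the tumor mean to the controls carries a wide counting interval. Sprr2k, a small proline-rich protein of the cornified envelope, had 1 read in the controls and a ratio of 1703 (95% exact Poisson interval 306 to 67274), from 18.5, 15.8 and 9.49 CPM in the ALK and 16.6, 31.1 and 53.5 CPM in the ALKKRAS tumors. Sox11, a transcription factor of embryonic tissues, had 2 reads and a ratio of 666 (184 to 5497), from 17.2, 8.2 and 29.2 and 6.17, 13.8 and 38.7 CPM. Ces1g, a carboxylesterase, had 2 reads and a ratio of 609 (168 to 5026). The neutrophil-attracting chemokine Cxcl3 had 3 reads and a ratio of 429.7 (147 to 2084). The ratio of Lcp1, an actin-bundling protein best known from leukocytes, was 404 (138 to 1961), likewise on 3 control reads. Slfn2, a gene of the Schlafen family, had 1 control read and a ratio of 906 (163 to 35775), and Plcxd3, a phospholipase C-like gene, 2 reads and a ratio of 399 (111 to 3298).

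Promoter sequences are shown for the program genes that combined a strong rise with sites of 2 well-known promoter elements, since AP-1 (the Fos and Jun dimer) is a transcription factor of keratinocyte stress and the TATA box lies just before the start of many inducible genes. The genes shown were separated above with a gap of at least 4-fold and a mean of at least 10 CPM, held both motifs on either strand, and had RefSeq and GENCODE starts within 100 bases of each other. The AP-1 motif was searched as TGANTCA. For the TATA box the letters were TATAAA. Of the Sprr2 genes, 1 is shown. Each stretch runs 5′ to 3′ along the gene's own strand from 250 bases before the start to 50 bases after it, in RefSeq's GRCm38.p6 sequence, with every match of the 2 motifs in capitals.
Sprr2k (chr3:92432332-92432631, plus strand): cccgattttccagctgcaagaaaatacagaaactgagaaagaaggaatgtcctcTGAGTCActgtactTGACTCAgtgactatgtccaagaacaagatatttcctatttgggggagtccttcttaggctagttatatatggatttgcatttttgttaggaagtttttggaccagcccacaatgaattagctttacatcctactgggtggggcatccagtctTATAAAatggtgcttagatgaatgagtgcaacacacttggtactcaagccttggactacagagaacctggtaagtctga
Mmp13 (chr9:7272264-7272563, plus strand): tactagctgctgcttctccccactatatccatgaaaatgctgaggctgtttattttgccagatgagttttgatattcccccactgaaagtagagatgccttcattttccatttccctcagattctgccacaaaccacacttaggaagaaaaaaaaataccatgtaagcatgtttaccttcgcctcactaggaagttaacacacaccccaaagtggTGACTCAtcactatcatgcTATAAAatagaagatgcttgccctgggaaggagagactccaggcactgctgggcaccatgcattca
Padi4 (chr4:140774154-140774453, minus strand): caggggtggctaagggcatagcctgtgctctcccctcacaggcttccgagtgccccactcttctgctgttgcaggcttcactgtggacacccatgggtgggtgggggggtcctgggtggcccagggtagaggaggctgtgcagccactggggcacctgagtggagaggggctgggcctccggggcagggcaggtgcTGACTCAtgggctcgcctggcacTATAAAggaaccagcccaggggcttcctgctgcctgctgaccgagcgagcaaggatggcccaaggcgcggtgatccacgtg
Mmp10 (chr9:7502092-7502391, plus strand): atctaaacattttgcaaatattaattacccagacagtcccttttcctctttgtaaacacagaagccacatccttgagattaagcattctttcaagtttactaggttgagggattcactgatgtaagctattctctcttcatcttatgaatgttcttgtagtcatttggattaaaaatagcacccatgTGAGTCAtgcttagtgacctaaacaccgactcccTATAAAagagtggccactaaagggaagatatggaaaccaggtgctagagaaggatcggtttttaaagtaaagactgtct
Prr9 (chr3:92123898-92124197, minus strand): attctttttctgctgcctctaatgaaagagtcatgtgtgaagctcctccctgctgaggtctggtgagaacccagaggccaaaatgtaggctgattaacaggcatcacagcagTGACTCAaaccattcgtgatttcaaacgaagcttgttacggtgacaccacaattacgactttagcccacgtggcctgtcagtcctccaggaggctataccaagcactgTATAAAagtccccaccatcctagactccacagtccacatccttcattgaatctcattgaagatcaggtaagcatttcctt
Mmp1a (chr9:7463891-7464190, plus strand): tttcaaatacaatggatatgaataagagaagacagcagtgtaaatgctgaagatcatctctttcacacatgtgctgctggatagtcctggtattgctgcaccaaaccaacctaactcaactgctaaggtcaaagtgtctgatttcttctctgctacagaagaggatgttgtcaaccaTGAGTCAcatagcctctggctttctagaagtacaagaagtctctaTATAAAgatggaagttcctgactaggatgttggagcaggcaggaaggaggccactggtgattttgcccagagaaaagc
Il1a (chr2:129309923-129310222, minus strand): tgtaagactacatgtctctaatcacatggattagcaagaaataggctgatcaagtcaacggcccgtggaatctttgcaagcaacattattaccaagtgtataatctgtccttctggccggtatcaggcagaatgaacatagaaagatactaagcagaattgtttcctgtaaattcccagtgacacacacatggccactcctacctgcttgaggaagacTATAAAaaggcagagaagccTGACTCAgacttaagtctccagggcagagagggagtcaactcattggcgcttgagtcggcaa
Sprr1b (chr3:92438730-92439029, minus strand): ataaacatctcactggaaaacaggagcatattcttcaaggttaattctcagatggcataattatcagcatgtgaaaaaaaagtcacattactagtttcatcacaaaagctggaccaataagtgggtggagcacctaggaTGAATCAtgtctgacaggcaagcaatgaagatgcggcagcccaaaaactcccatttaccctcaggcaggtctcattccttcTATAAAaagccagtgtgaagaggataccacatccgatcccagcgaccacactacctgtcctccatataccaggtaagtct

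In these 8 promoters, the TATA match began between 16 bases (Mmp13) and 32 bases (Il1a) before the start. The AP-1 match began 35 bases before the start in Mmp13, 54 in Padi4, 63 in Mmp10, 73 in Mmp1a, 111 in Sprr1b and 138 in Prr9, and Sprr2k had a pair of matches 196 and 182 bases before it. In Il1a the AP-1 match lay between the TATA match and the start, 12 bases before it. The promoters of Kazald1 and Scin are given beside them and held neither motif, as searched, in this window. These genes had the widest gap and the smallest adjusted p among the decreases named here. Their lack of both motifs allows no comparison, because the 8 promoters above were chosen for holding both, which few promoters do.
Kazald1 (chr19:45074991-45075290, plus strand): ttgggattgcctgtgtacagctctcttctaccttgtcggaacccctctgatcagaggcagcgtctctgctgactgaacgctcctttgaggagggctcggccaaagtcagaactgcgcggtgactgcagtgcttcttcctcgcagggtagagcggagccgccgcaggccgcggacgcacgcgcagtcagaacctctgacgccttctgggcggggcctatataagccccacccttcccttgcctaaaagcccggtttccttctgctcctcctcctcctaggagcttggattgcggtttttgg
Scin (chr12:40134179-40134478, minus strand): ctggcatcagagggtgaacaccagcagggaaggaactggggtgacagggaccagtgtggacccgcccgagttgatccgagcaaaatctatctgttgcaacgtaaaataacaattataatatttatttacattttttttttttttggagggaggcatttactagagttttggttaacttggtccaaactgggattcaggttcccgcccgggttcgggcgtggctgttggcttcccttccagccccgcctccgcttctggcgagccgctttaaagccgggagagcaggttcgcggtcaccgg

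Over all 10830 promoters that could be matched to a tested symbol, TGANTCA was found in 590 (5.45%), TATAAA in 826 (7.63%) and both in 90 (0.831%). Promoter entries were found for 1121 of the 1586 genes above, which is 70.7%, and for 126 of the 192 with a gap of at least 4-fold, which is 65.6%. Because fewer than 80% had an entry, a comparison of motif shares between the program and other genes is void and none is given. A match of these letters is a description of the sequence and was not tested as a binding site. The AP-1 factors themselves were not in the program: of 13 tested, 0 were separated and called in either direction, 2 were below without control library 3 or ALK 2, 1 was above without control library 1, and their median log2 fold change was −0.27. Many of them respond to tissue dissociation, whose marker genes are given with Myc below.

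Of 6 tested keratins that mark wounded and stressed epidermis, 5 were in the program above and 0 below, with a median log2 fold change of 3.88, and 2 were above with the 3 tumors with high Y-linked levels alone. Krt6a, a keratin of the companion layer that is induced by injury, measured 23.9, 301 and 92 CPM in controls, 7438, 7023 and 7606 CPM in ALK tumors and 3887, 4038 and 6319.5 CPM in ALKKRAS tumors (log2 fold change 5.41 ± 0.81, adjusted p = 0.00284). Its closest copy Krt6b measured 1.1, 75.5 and 12.2 CPM in controls, 1608, 1989 and 1547 CPM in ALK tumors and 795, 957 and 2348 CPM in ALKKRAS tumors (log2 fold change 5.70 ± 1.25, adjusted p = 0.0128). Reads may have been shared between the pair. Krt16, the usual partner of Krt6, measured 207, 443 and 284 CPM in controls, 4196, 4335 and 3077 CPM in ALK tumors and 2934, 2383 and 3846 CPM in ALKKRAS tumors (log2 fold change 3.47 ± 0.32, adjusted p = 0.000398). For all 3 genes every tumor lay at least 5.37-fold above every control. Krt42 rose from between 5.1 and 7.41 to between 75.5 and 179 CPM (log2 fold change 4.29 ± 0.32, adjusted p = 0.000256). Krt17 rose from between 811 and 2080.4 to between 3645 and 7477 CPM (log2 fold change 2.15 ± 0.37, adjusted p = 0.00482).

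Of 9 keratins of simple and mucosal epithelia, 4 were in the program above (2 without control library 2) and 0 below. Krt18, a keratin of single-layered epithelia, measured 6.66, 4.22 and 1.58 CPM in controls, 69.9, 57.7 and 96.1 CPM in ALK tumors and 186, 145 and 44.3 CPM in ALKKRAS tumors (log2 fold change 4.54 ± 0.64, adjusted p = 0.00226). Merkel cells express it too. The sum of 8 Merkel cell markers was 3.97 to 10.2 CPM in the controls and 9.67 to 185 CPM in the tumors, most of it from Krt8, a keratin of simple epithelia, at 2.87 to 9.47 and 7.49 to 182 CPM. The markers Atoh1, Krt20 and Sox2 reached at most 0.335, 0.268 and 0.171 CPM in any tumor. The part of such cells was not tested. Krt13, a keratin of internal stratified epithelia, measured 0.659, 1.24 and 0.284 CPM in controls, 6.98, 39 and 2.6 CPM in ALK tumors and 5.63, 11.5 and 31 CPM in ALKKRAS tumors (log2 fold change 4.49 ± 1.10, adjusted p = 0.02). The call of Krt13 was lost in 3 of the 9 fits that each left out 1 library. Of 9 keratins of normal epidermis, 3 were in the program below (6 without control library 1) and 0 above. Krt15, a keratin of basal cells and of the hair follicle bulge, measured 2576, 7052 and 8266 CPM in controls, 435, 482 and 686 CPM in ALK tumors and 661, 616 and 423 CPM in ALKKRAS tumors (log2 fold change −3.44 ± 0.34, adjusted p = 0.000508). Krt24 fell from between 3.95 and 61 to between 0.403 and 2.73 CPM (log2 fold change −4.83 ± 0.77, adjusted p = 0.00367). Krt80 fell from between 77.1 and 395 to between 23.8 and 72.4 CPM (log2 fold change −2.65 ± 0.51, adjusted p = 0.00757). The highest tumor for Krt80, ALKKRAS 3, lay 1.06-fold below the lowest control, control library 1. In sorted bulk samples, fewer cells that express a gene and less of its RNA per cell cannot be told apart.

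Of 35 genes of the cornified envelope and barrier, 12 were in the program above and 0 below (median 2.28), and 8 of those above were genes of the Sprr group, whose near-identical copies make single members uncertain. Sprr2d measured 0.329, 9.35 and 0.243 CPM in controls, 217, 140 and 110.3 CPM in ALK tumors and 107, 157 and 279.9 CPM in ALKKRAS tumors (log2 fold change 5.71 ± 1.23, adjusted p = 0.012). Sprr1b, whose promoter is shown above, measured 0.22, 38.1 and 11.5 CPM in controls, 361, 195 and 241 CPM in ALK tumors and 325, 359 and 751 CPM in ALKKRAS tumors (log2 fold change 4.43 ± 1.18, adjusted p = 0.0281). Sprr1b lost its call in 3 of the 9 fits with 1 library left out. The controls differed among themselves, with control library 2 highest for both genes. Tgm1, the transglutaminase that cross-links the envelope, rose from between 6.08 and 19.5 to between 30.5 and 125 CPM (log2 fold change 2.59 ± 0.53, adjusted p = 0.00978). Cnfn, cornifelin, rose from between 0.805 and 10.3 to between 25.9 and 155 CPM (log2 fold change 3.6 ± 0.83, adjusted p = 0.0156). Padi4, which converts protein arginine to citrulline, rose from between 0.216 and 1.5 to between 22 and 57.7 CPM (log2 fold change 5.72 ± 0.72, adjusted p = 0.0014). Prr9, a proline-rich gene next to the Sprr2 cluster on chromosome 3, rose from between 0.379 and 2.47 to between 22.1 and 100.4 CPM (log2 fold change 5.06 ± 0.86, adjusted p = 0.00487). Acer1, an alkaline ceramidase of the differentiated epidermis, fell from between 199 and 386 to between 21.1 and 62.8 CPM (log2 fold change −3.08 ± 0.30, adjusted p = 0.000508).

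Several enzymes that cut the extracellular matrix rose. Of 14 matrix metalloproteinases tested, 6 were in the program above and 1 below. Mmp9, a gelatinase, measured 0, 4.38 and 0.365 CPM in controls, 489.7, 176 and 227 CPM in ALK tumors and 52.5, 76.8 and 123 CPM in ALKKRAS tumors (log2 fold change 6.72 ± 1.27, adjusted p = 0.00714). Mmp13, a collagenase, measured 0.329, 4.38 and 1.74 CPM in controls, 322, 101 and 88.6 CPM in ALK tumors and 75.5, 64.2 and 106 CPM in ALKKRAS tumors (log2 fold change 5.82 ± 0.88, adjusted p = 0.00293). Mmp10, a stromelysin, measured 0, 1.62 and 0.486 CPM in controls, 63.9, 22.2 and 25.4 CPM in ALK tumors and 52.7, 32.8 and 23.5 CPM in ALKKRAS tumors (log2 fold change 5.79 ± 0.99, adjusted p = 0.00494). In all 3 genes the ALK 1 tumor was the highest library, and the lowest tumor lay 10.7-fold or more above the highest control. Mmp1a, a collagenase with the close copy Mmp1b, rose from between 0 and 0.216 to between 4.58 and 20.5 CPM (log2 fold change 6.24 ± 0.78, adjusted p = 0.00127). Mmp12, a metalloelastase also made by macrophages, rose from between 0.108 and 0.329 to between 4.56 and 10.5 CPM (log2 fold change 4.86 ± 0.49, adjusted p = 0.000517). Mmp15, a membrane-bound member, was the 1 gene of the group in the program below (log2 fold change −0.76 ± 0.22, adjusted p = 0.0348), and it kept its call in 3 of the 9 fits that each left out 1 library. Mmp2, a gelatinase, was called lower without being separated (log2 fold change −2.08 ± 0.48, adjusted p = 0.0162).

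Of 10 genes of the plasminogen system, 5 were above and 0 below (3 above without control library 2). Plau, the urokinase that converts plasminogen to plasmin, measured 4.65, 12.1 and 7.74 CPM in controls, 256, 156 and 47 CPM in ALK tumors and 127, 133 and 58.9 CPM in ALKKRAS tumors (log2 fold change 3.97 ± 0.63, adjusted p = 0.00355). The tissue activator Plat rose from between 2.45 and 12.6 to between 17 and 139 CPM (log2 fold change 2.96 ± 0.73, adjusted p = 0.021). Slpi, an inhibitor of leukocyte proteases, rose from between 12 and 170.1 to between 282 and 1074 CPM (log2 fold change 2.86 ± 0.80, adjusted p = 0.033), a call kept in 4 of the 9 fits. Among kallikreins and epidermal protease inhibitors, 8 of 28 were above and 0 below (4 below without control library 1). The kallikrein Klk6 rose from between 0.476 and 2.87 to between 8.58 and 46.4 CPM (log2 fold change 4.35 ± 0.71, adjusted p = 0.00398). Klk13 rose from between 0.0366 and 3.3 to between 34.5 and 95.2 CPM (log2 fold change 4.70 ± 0.93, adjusted p = 0.00865).

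Of the lists with at least 20 tested genes, actin-binding and migration genes had the highest share in the program above, 15 of 23 above and 0 below, beside 10.9% of all genes, with a median log2 fold change of 1.31. With each library left out in turn the count was 15 or 16, and with the 3 tumors with high Y-linked levels alone it was 10. Fscn1, fascin, which bundles actin in filopodia, measured 3.95, 4.33 and 7.86 CPM in controls, 175, 163 and 155 CPM in ALK tumors and 213, 145 and 158 CPM in ALKKRAS tumors (log2 fold change 4.96 ± 0.30, adjusted p = 0.000187). Its 6 tumors spanned less than 1.5-fold, and the genotypes overlapped. Pdpn, podoplanin, a membrane protein of migrating keratinocytes, measured 18, 8.44 and 9.52 CPM in controls, 224.7, 122 and 134 CPM in ALK tumors and 239, 222 and 190.2 CPM in ALKKRAS tumors (log2 fold change 3.96 ± 0.35, adjusted p = 0.000393). Vim, vimentin, an intermediate filament of mesenchymal cells, measured 11.9, 2.6 and 7.21 CPM in controls, 102, 115 and 146 CPM in ALK tumors and 121, 136 and 87.9 CPM in ALKKRAS tumors (log2 fold change 4.02 ± 0.47, adjusted p = 0.00108). Cald1, caldesmon, which binds actin and tropomyosin, measured 30, 5.73 and 15.3 CPM in controls, 173, 211 and 245 CPM in ALK tumors and 203, 268 and 199 CPM in ALKKRAS tumors (log2 fold change 3.67 ± 0.50, adjusted p = 0.0019). These genes are also expressed by fibroblasts, endothelium and Langerhans cells. The summed level of 10 fibroblast markers was 251 to 1002 CPM in the controls and 479.7 to 867 CPM in the tumors. The sum mixed unlike members. Postn lay at 36.2 to 208 CPM in controls and 245 to 690 CPM in tumors, whereas Dcn overlapped, at 30.3 to 431 and 35.9 to 117 CPM. Of the 9 tested, 2 were separated above and 0 below, and none was in the program. Endothelial and Langerhans cell markers were higher in the tumors, as given below. The part of all these cells in these results was not tested.

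Receptors and ligands of the matrix changed in part. Of 11 integrins, 3 were above and 0 below. Itga5, the fibronectin receptor subunit, measured 8.67, 6.76 and 7.41 CPM in controls, 111, 82.3 and 44.2 CPM in ALK tumors and 75.5, 58.6 and 30.3 CPM in ALKKRAS tumors (log2 fold change 3.11 ± 0.40, adjusted p = 0.0014). Lama3, a laminin subunit of the anchor of basal keratinocytes, rose from between 47.6 and 132 to between 268 and 549 CPM (log2 fold change 1.91 ± 0.32, adjusted p = 0.0046). Dst, whose epidermal form links keratin to the hemidesmosome, fell from between 155 and 691 to between 53.5 and 111 CPM (log2 fold change −2.45 ± 0.37, adjusted p = 0.003). Lgals1, galectin 1, measured 3.4, 1.35 and 9.07 CPM in controls, 169.7, 117 and 355 CPM in ALK tumors and 229.5, 260.1 and 282 CPM in ALKKRAS tumors (log2 fold change 5.66 ± 0.71, adjusted p = 0.00134). Plod2, which hydroxylates collagen lysines, measured 0.622, 0.108 and 1.46 CPM in controls, 92.3, 81.8 and 39.3 CPM in ALK tumors and 105, 100.4 and 45.5 CPM in ALKKRAS tumors (log2 fold change 6.67 ± 0.74, adjusted p = 0.000828). Col18a1, a basement membrane collagen, rose from between 27.7 and 80.5 to between 266 and 466 CPM (log2 fold change 2.95 ± 0.36, adjusted p = 0.00111). Of 25 collagens and cross-linking enzymes, 6 were above and 0 below. Cdh1, E-cadherin, the adhesion molecule of epithelial cells, fell from between 536 and 721 to between 176 and 379.8 CPM (log2 fold change −1.11 ± 0.24, adjusted p = 0.0121). Of 8 tested cadherins and transcription factors of epithelial-to-mesenchymal transition, 0 were above (2 without control library 3) and Cdh1 alone was below, and it was not in the program without control library 2.

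Growth factors of the EGF family were also in the program. Of 12 ligands and receptors tested, 5 were above and 0 below (5 above in every fit with 1 library left out, and 2 below without control library 1, control library 3 or ALK 2), and all 5 encode ligands. Areg, amphiregulin, measured 1.76, 11.5 and 10.6 CPM in controls, 571, 417 and 91.8 CPM in ALK tumors and 483, 428 and 169 CPM in ALKKRAS tumors (log2 fold change 5.51 ± 0.90, adjusted p = 0.00411). Ereg, epiregulin, measured 0.659, 3.68 and 0.243 CPM in controls, 412, 175 and 28.3 CPM in ALK tumors and 169, 144 and 51.5 CPM in ALKKRAS tumors (log2 fold change 6.75 ± 1.25, adjusted p = 0.00669). The tumors numbered 3 were the lowest tumors of each genotype for both genes, but still lay 6.90-fold or more above the highest control. Epgn, epigen, rose from between 23.8 and 36.6 to between 77.7 and 256 CPM (log2 fold change 2.48 ± 0.44, adjusted p = 0.00566). Tgfa, transforming growth factor alpha, rose from between 11.5 and 50.3 to between 94.6 and 143 CPM (log2 fold change 1.84 ± 0.41, adjusted p = 0.0137).

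Genes known to follow ERK activity were divided. Of 20 tested, 6 were above, Areg and Ereg among them, and 1 below. Etv4, an ETS transcription factor, measured 8.53, 6 and 7.13 CPM in controls, 57.8, 43.7 and 43.8 CPM in ALK tumors and 64.1, 59.2 and 92.2 CPM in ALKKRAS tumors (log2 fold change 3.03 ± 0.23, adjusted p = 0.000256). Etv5, its relative, rose from between 16.6 and 37 to between 67.3 and 103 CPM (log2 fold change 1.58 ± 0.26, adjusted p = 0.00388). Spry4, a feedback inhibitor of the pathway, rose from between 1.7 and 6.15 to between 12 and 34.5 CPM (log2 fold change 2.94 ± 0.55, adjusted p = 0.00702). The member below was Myc, a growth-promoting transcription factor, which measured 1104, 602 and 257 CPM in controls, 183, 220.1 and 152 CPM in ALK tumors and 244, 207 and 133 CPM in ALKKRAS tumors (log2 fold change −1.79 ± 0.38, adjusted p = 0.0117). The controls for Myc ranged over 4-fold and control library 3 lay next to the highest tumor. The sum of 12 genes that respond to tissue dissociation, Fos and Ier2 among them, was in the same order in the controls, at 17748, 13406 and 9378 CPM, and lay at 6959 to 12152 CPM in the tumors. Of these, 0 were above and 1, Ier2, was below (5 below without control library 3 and 6 without ALK 2). Ier2, an immediate-early gene, fell from between 508 and 517 to between 271 and 318 CPM (log2 fold change −0.81 ± 0.11, adjusted p = 0.00214). The part of this response in the levels of Myc and the AP-1 factors was not tested. Of 21 receptor tyrosine kinases outside the ErbB family, 2 were above (9.52%) and 3 below (14.3%), beside 10.9% and 7.35% of all genes. Without control library 1, 8 were below. Among them, Ret rose from between 0.365 and 0.649 to between 6.63 and 16.4 CPM (log2 fold change 4.34 ± 0.45, adjusted p = 0.000592). The insulin receptor Insr fell from between 8.22 and 9.88 to between 4.4 and 5.48 CPM (log2 fold change −0.91 ± 0.21, adjusted p = 0.0153). Fgfr2, the keratinocyte growth factor receptor, fell from between 279.7 and 345 to between 83.6 and 193 CPM (log2 fold change −1.34 ± 0.22, adjusted p = 0.00413).

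Genes of JAK-STAT signaling, which carries the signals of many cytokines, changed in both directions. Of 35 cytokines, receptors and regulators, 7 were above and 7 below, and the counts moved with single libraries: 4 above without control library 3 or ALKKRAS 2, 11 below without control library 1 and 3 below without control library 2. Il24, a cytokine of the IL-10 family like Il19, measured 6.77, 6.76 and 0.567 CPM in controls, 335, 143 and 114 CPM in ALK tumors and 173, 156 and 62.3 CPM in ALKKRAS tumors (log2 fold change 5.10 ± 0.87, adjusted p = 0.00483). Clcf1, a cytokine of the IL-6 family, rose from between 4.13 and 6.81 to between 19.1 and 132 CPM (log2 fold change 3.69 ± 0.74, adjusted p = 0.00928). Il6st, the shared signaling receptor of that family, fell from between 76.9 and 206 to between 19.3 and 63 CPM (log2 fold change −1.52 ± 0.42, adjusted p = 0.0308), a call kept in 4 of the 9 fits that each left out 1 library. Stat5b fell from between 18.2 and 28.9 to between 10.3 and 15.1 CPM (log2 fold change −0.91 ± 0.21, adjusted p = 0.0153). The inhibitors Cish (log2 fold change −0.91 ± 0.24, adjusted p = 0.0264) and Pias3 (log2 fold change −1.40 ± 0.34, adjusted p = 0.0188) were also below. So were Socs7 (log2 fold change −0.88 ± 0.19, adjusted p = 0.0126) and the phosphatase Ptpn6 (log2 fold change −1.31 ± 0.26, adjusted p = 0.00836). Another inhibitor, Socs2, was above (log2 fold change 1.54 ± 0.42, adjusted p = 0.031), in 3 of those 9 fits. Pias3, Socs7 and Ptpn6 also belong to a list that the study itself chose on these samples, of which 8 of 18 tested genes were above and 4 below (2 below without control library 2), and that list is not independent evidence of a direction.

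Of 17 chemokines and colony stimulating factors, 7 were above and 1 below (median 2.60). Csf3, the growth factor of neutrophils, measured 1.72, 0 and 0 CPM in controls, 365, 69.1 and 18.6 CPM in ALK tumors and 95.4, 133 and 15.2 CPM in ALKKRAS tumors (log2 fold change 7.48 ± 1.69, adjusted p = 0.0147). Of its controls, 2 of 3 were at 0, and the tumors ranged over 24-fold. Cxcl14, a chemokine of normal epithelia, rose from between 23.2 and 128 to between 219 and 829.9 CPM (log2 fold change 2.71 ± 0.62, adjusted p = 0.0152). Cxcl10, an interferon-induced chemokine, rose from between 13.7 and 18 to between 59.2 and 215.2 CPM (log2 fold change 2.92 ± 0.43, adjusted p = 0.00267). Ccl27a, a chemokine of normal keratinocytes that draws T cells to skin, measured 57.9, 105 and 124 CPM in controls, 6.85, 9.93 and 7.24 CPM in ALK tumors and 6.64, 12.1 and 16.4 CPM in ALKKRAS tumors (log2 fold change −3.30 ± 0.31, adjusted p = 0.000436). Il1a, the alarm cytokine released by damaged keratinocytes, measured 6.51, 9.3 and 4.66 CPM in controls, 333, 134 and 66.5 CPM in ALK tumors and 408, 206 and 52.7 CPM in ALKKRAS tumors (log2 fold change 4.87 ± 0.83, adjusted p = 0.00487). In all, 4 of 14 IL-1 family genes were above and 1 below (4 below without control library 1 and 0 without control library 2 or 3). Interferon response genes had 2 of 22 above, 0 below and a median of −0.21, but 6 were below without control library 1 and between 1 and 4 above with 1 library left out.

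Among S100 proteins and antimicrobial peptides, 10 of 23 were above and 0 below (median 1.91). Stfa3, a cystatin-type protease inhibitor with near-identical copies, measured 0.732, 6.43 and 3.89 CPM in controls, 184, 72.2 and 123 CPM in ALK tumors and 39.9, 94 and 277 CPM in ALKKRAS tumors (log2 fold change 5.17 ± 0.92, adjusted p = 0.00572). S100a6, a calcium-binding protein, rose from between 269 and 578 to between 646 and 1459 CPM (log2 fold change 1.17 ± 0.31, adjusted p = 0.0252), a call kept in 6 of the 9 fits. Another member, Lyz2, is a lysozyme of macrophages and neutrophils, whose markers are given below. It measured 0.0732, 0 and 0.162 CPM in controls, 2.32, 1.47 and 5.07 CPM in ALK tumors and 2.88, 31.5 and 12.7 CPM in ALKKRAS tumors (log2 fold change 6.26 ± 1.10, adjusted p = 0.00553). Anxa3, an annexin, rose from between 4.38 and 9.66 to between 99.6 and 228 CPM (log2 fold change 4.69 ± 0.34, adjusted p = 0.000236). Its relative Anxa8 fell from between 3091 and 4756 to between 651 and 1192 CPM (log2 fold change −2.02 ± 0.18, adjusted p = 0.000398). Pgf, the placental growth factor of the VEGF family, measured 0.476, 0.162 and 0.365 CPM in controls, 85.5, 32.9 and 68 CPM in ALK tumors and 20.1, 37.4 and 62.6 CPM in ALKKRAS tumors (log2 fold change 7.15 ± 0.63, adjusted p = 0.000398). Of its list of VEGF family and angiogenesis ligands, 3 of 16 were above (5 without control library 1). Of 23 genes of TGF-beta, activin and BMP signaling, 4 were above (2 without control library 2) and 2 below (6 without control library 1). Inhba, the activin A subunit, rose from between 0.162 and 1.65 to between 22.2 and 69.6 CPM (log2 fold change 5.49 ± 0.76, adjusted p = 0.00212).

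**Figure D3:**
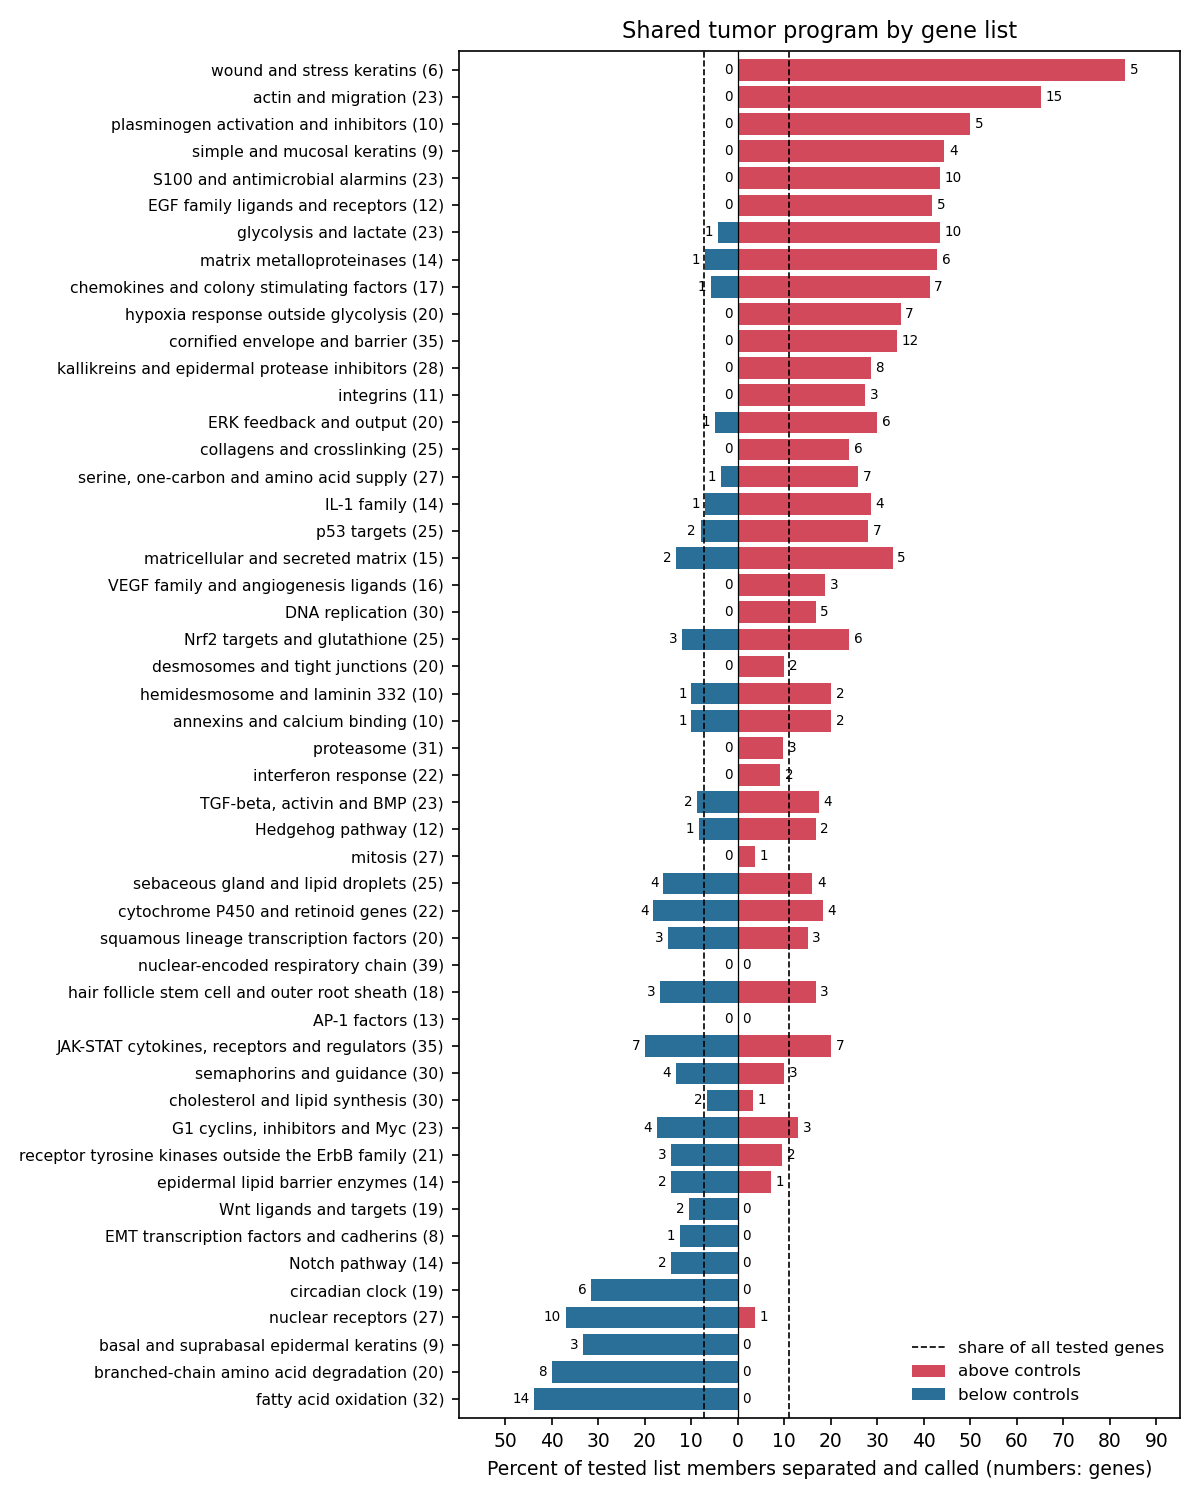
Bars give, for each gene list, the percent of its tested members that were separated and called above the controls (to the right) or below them (to the left), and dashed lines mark the shares of all tested genes, 10.9% and 7.35%. Wound keratins and actin genes reach furthest to the right, and fatty acid oxidation and branched-chain amino acid degradation reach to the left with no member on the right.

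Of 23 genes tested of glycolysis, the path from glucose to pyruvate and lactate, 10 were above and 1 below, with a median log2 fold change of 0.88, and between 9 and 13 were above with 1 library left out and 8 with the 3 tumors with high Y-linked levels alone. Ldha, which makes lactate from pyruvate, measured 1121, 954 and 856 CPM in controls, 4778, 3318 and 3989 CPM in ALK tumors and 2344, 3204 and 2703 CPM in ALKKRAS tumors (log2 fold change 1.77 ± 0.19, adjusted p = 0.000727). Pkm, pyruvate kinase, measured 863, 1054 and 948 CPM in controls, 3586, 3061 and 3755 CPM in ALK tumors and 2144, 2445 and 2452 CPM in ALKKRAS tumors (log2 fold change 1.58 ± 0.15, adjusted p = 0.000492). For both genes the lowest tumor lay just over 2-fold above the highest control. Pgam1 rose from between 101 and 137 to between 279 and 536 CPM (log2 fold change 1.79 ± 0.19, adjusted p = 0.000655). Gapdh rose from between 614 and 964 to between 1906 and 3153 CPM (log2 fold change 1.67 ± 0.19, adjusted p = 0.000891). Eno1 rose from between 631 and 884 to between 1758 and 2534 CPM (log2 fold change 1.48 ± 0.17, adjusted p = 0.000969). Pfkfb3, which makes the activator of phosphofructokinase, rose from between 2.65 and 3.4 to between 15 and 41.1 CPM (log2 fold change 3.04 ± 0.37, adjusted p = 0.0011). The lactate exporter Slc16a3 rose from between 2.11 and 34.7 to between 40.1 and 252 CPM (log2 fold change 2.77 ± 0.85, adjusted p = 0.0455), but kept its call in only 1 of the 9 fits that each left out 1 library. Of 20 genes of the low-oxygen response outside glycolysis, 7 were above and 0 below. Car9, a membrane carbonic anhydrase, rose from between 1.01 and 7.94 to between 23.9 and 63.8 CPM (log2 fold change 3.30 ± 0.65, adjusted p = 0.0082). Ddit4, an inhibitor of mTOR signaling, rose from between 4.62 and 7.94 to between 21.7 and 45.6 CPM (log2 fold change 2.40 ± 0.28, adjusted p = 0.00103).

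Antioxidant genes changed in both directions. Of 25 Nrf2 targets and glutathione genes, 6 were above (10 without control library 1) and 3 below (5 without control library 1 and 6 without control library 3). Gpx2, a glutathione peroxidase of epithelia, measured 4.1, 13.8 and 2.92 CPM in controls, 199, 110 and 254 CPM in ALK tumors and 252, 346 and 575 CPM in ALKKRAS tumors (log2 fold change 5.30 ± 0.67, adjusted p = 0.00139). The cystine importer Slc7a11 rose from between 2.03 and 4.13 to between 17.6 and 67.7 CPM (log2 fold change 3.75 ± 0.48, adjusted p = 0.00144). The glutathione transferase Gsta4 rose from between 6.16 and 25 to between 232 and 491 CPM (log2 fold change 4.22 ± 0.49, adjusted p = 0.00103). Nqo1 rose from between 23.3 and 53.8 to between 135 and 248 CPM (log2 fold change 2.15 ± 0.31, adjusted p = 0.00234). The 3 members below were all glutathione transferases of the mu class. Gstm1 measured 336, 568 and 381 CPM in controls, 120.4, 122 and 100 CPM in ALK tumors and 133, 131 and 111 CPM in ALKKRAS tumors (log2 fold change −1.84 ± 0.18, adjusted p = 0.00047). Fabp5, a fatty acid carrier of keratinocytes, measured 267, 166 and 284 CPM in controls, 4139, 2488 and 3461 CPM in ALK tumors and 2474, 3341 and 5702 CPM in ALKKRAS tumors (log2 fold change 3.91 ± 0.37, adjusted p = 0.000444).

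Among the decreases, the widest gap belonged to Kazald1, a secreted protein with a Kazal-type inhibitor domain. It measured 232, 227 and 229 CPM in controls, 12.3, 21.5 and 21.4 CPM in ALK tumors and 26.9, 22.3 and 11.8 CPM in ALKKRAS tumors, a gap of 8.29-fold (log2 fold change −3.57 ± 0.26, adjusted p = 0.000236). Scin, scinderin, which severs actin filaments, measured 239, 245 and 268 CPM in controls, 38.1, 55.3 and 48.5 CPM in ALK tumors and 52, 43.1 and 36.9 CPM in ALKKRAS tumors (log2 fold change −2.46 ± 0.15, adjusted p = 0.000187). The controls of both genes lay within a narrow range, and the tumors of both genotypes overlapped. Serpinb7, a serine protease inhibitor of the epidermis, measured 36.4, 258 and 218 CPM in controls, 1.81, 1.6 and 4.16 CPM in ALK tumors and 0.0671, 0.6252 and 2.78 CPM in ALKKRAS tumors (log2 fold change −6.60 ± 0.82, adjusted p = 0.00131). Cyp4b1, a cytochrome P450, measured 194, 268 and 232 CPM in controls, 24.2, 23.4 and 14.5 CPM in ALK tumors and 29.8, 37.3 and 15 CPM in ALKKRAS tumors (log2 fold change −3.28 ± 0.28, adjusted p = 0.000349). In Serpinb7 the lowest control was library 1, at 36.4 CPM, and the fold change rests on controls that differed by 7-fold.

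Sema3d, a secreted guidance cue, measured 18.2, 114 and 203 CPM in controls, 1.18, 1.41 and 0.52 CPM in ALK tumors and 1.54, 0.5001 and 3.3 CPM in ALKKRAS tumors (log2 fold change −6.36 ± 0.76, adjusted p = 0.0011). Adh1, an alcohol dehydrogenase that oxidizes retinol, measured 476, 266 and 97.8 CPM in controls, 6.78, 9.16 and 6.8 CPM in ALK tumors and 20.2, 13.7 and 3.04 CPM in ALKKRAS tumors (log2 fold change −4.86 ± 0.58, adjusted p = 0.00114). Il22ra2, a soluble receptor that binds and blocks IL-22, measured 8.71, 37.7 and 46.8 CPM in controls, 0.839, 1.41 and 1.47 CPM in ALK tumors and 0.738, 0.583 and 0.77 CPM in ALKKRAS tumors (log2 fold change −5.06 ± 0.47, adjusted p = 0.000436). For each of these genes the controls spread over 4-fold or more, with control library 1 highest for Adh1 and lowest for Sema3d and Il22ra2, and every tumor still lay below. Ago4, an Argonaute protein of small RNA silencing, fell from between 17.8 and 34.4 to between 1.3 and 4.28 CPM (log2 fold change −3.43 ± 0.28, adjusted p = 0.000318). Abhd14b, a hydrolase, fell from between 46.2 and 59.7 to between 2.32 and 10.8 CPM (log2 fold change −2.92 ± 0.28, adjusted p = 0.000444). Hsd17b13, a lipid droplet enzyme, fell from between 7.72 and 59.3 to between 0 and 1.35 CPM (log2 fold change −6.61 ± 0.94, adjusted p = 0.00237).

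Of 32 genes of mitochondrial fatty acid oxidation tested, 14 were in the program below, beside 7.35% of all genes, and 0 above, and the median log2 fold change was −0.98. Between 12 and 21 were below with 1 library left out, and 0 with the 3 tumors with high Y-linked levels alone. Ppara, the nuclear receptor that activates these genes, measured 20.7, 13.1 and 8.71 CPM in controls, 0.638, 1.09 and 0 CPM in ALK tumors and 3.89, 1.88 and 1.58 CPM in ALKKRAS tumors (log2 fold change −3.6 ± 0.71, adjusted p = 0.00865). Acadm, the medium-chain acyl-CoA dehydrogenase, measured 502, 395 and 224 CPM in controls, 78.9, 101 and 92.6 CPM in ALK tumors and 109, 100.2 and 84.2 CPM in ALKKRAS tumors (log2 fold change −1.99 ± 0.23, adjusted p = 0.00086). In both, control library 1 was the highest and control library 3 the lowest control. Acaa2, the thiolase of the last step, fell from between 420.3 and 1052 to between 183 and 336 CPM (log2 fold change −1.47 ± 0.29, adjusted p = 0.00778). Eci1, an enoyl-CoA isomerase, fell from between 57.1 and 79.6 to between 24.6 and 32.5 CPM (log2 fold change −1.32 ± 0.16, adjusted p = 0.000998). Hadhb, a subunit of the trifunctional protein, fell from between 275 and 393 to between 147 and 189.9 CPM (log2 fold change −0.97 ± 0.15, adjusted p = 0.00306). The sum of 6 sebocyte markers, whose cells also use this pathway, was likewise highest in control library 1: it measured 1520, 445 and 129 CPM in the controls and 144 to 503.5 CPM in the tumors, and their part in this result was not tested.

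Of 20 genes that break down the branched-chain amino acids, 8 were below and 0 above (median −0.67), and 1 was below with the 3 tumors with high Y-linked levels alone. Aldh6a1, an enzyme of valine breakdown, measured 385, 202 and 146 CPM in controls, 43.2, 60.6 and 35.1 CPM in ALK tumors and 89.8, 53 and 37 CPM in ALKKRAS tumors (log2 fold change −2.22 ± 0.35, adjusted p = 0.00351). Bcat2, which takes the amino group off these amino acids in mitochondria, measured 154, 138 and 106 CPM in controls, 43, 42 and 47.8 CPM in ALK tumors and 65.6, 52.4 and 40.9 CPM in ALKKRAS tumors (log2 fold change −1.46 ± 0.17, adjusted p = 0.00106). Every tumor lay below every control for both. The nuclear-encoded respiratory chain, in the same organelle, had 0 of 39 genes above, 0 below and a median of −0.01.

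The circadian clock list had 6 of 19 genes below and 0 above (median −0.76), and those below included the PAR bZIP transcription factors Tef, Hlf and Dbp and the repressors Cry2 and Nr1d1. Tef measured 84.1, 113 and 89.1 CPM in controls, 14.6, 8.52 and 17 CPM in ALK tumors and 20.9, 10.8 and 29.1 CPM in ALKKRAS tumors (log2 fold change −2.53 ± 0.30, adjusted p = 0.0011). Hlf fell from between 12.2 and 49.6 to between 0.47 and 6.16 CPM (log2 fold change −3.49 ± 0.66, adjusted p = 0.00713). Dbp fell from between 39.3 and 94.6 to between 4.36 and 26.8 CPM (log2 fold change −2.63 ± 0.57, adjusted p = 0.012). Nr1d1, REV-ERB alpha, measured 229, 248 and 253 CPM in controls, 150, 112 and 67.7 CPM in ALK tumors and 118, 68.4 and 80 CPM in ALKKRAS tumors (log2 fold change −1.30 ± 0.25, adjusted p = 0.00692). These genes cycle with the time of day, and the hour of collection is not given in the sources used here, so that it cannot be told apart from tumor state.

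Nuclear receptors, the transcription factors switched by steroids, retinoids and lipids, had 10 of 27 below and 1 above (median −0.91). Nr3c1, the glucocorticoid receptor, measured 88.3, 101 and 109 CPM in controls, 39, 32.3 and 25.7 CPM in ALK tumors and 34.5, 43.9 and 44.9 CPM in ALKKRAS tumors (log2 fold change −1.45 ± 0.16, adjusted p = 0.000804). The member above was Ppard, which rose from between 0.622 and 1.66 to between 3.46 and 6.24 CPM (log2 fold change 2.27 ± 0.44, adjusted p = 0.00739) while its relative Ppara fell.

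Of 20 transcription factors of the squamous lineage, 3 were above and 3 below (median −0.08). Gata3, required for epidermal and hair differentiation, measured 191, 496 and 596 CPM in controls, 102, 132 and 121 CPM in ALK tumors and 98.8, 87.1 and 126 CPM in ALKKRAS tumors (log2 fold change −1.95 ± 0.30, adjusted p = 0.00318). Tfap2b, an AP-2 factor, fell from between 128 and 161 to between 34.4 and 60.9 CPM (log2 fold change −1.55 ± 0.16, adjusted p = 0.000655). Hmga2, an embryonic chromatin protein, measured 0.22, 0.108 and 0.932 CPM in controls, 31.3, 18.3 and 51.5 CPM in ALK tumors and 22, 26.8 and 42 CPM in ALKKRAS tumors (log2 fold change 6.19 ± 0.71, adjusted p = 0.000982). Runx1, a regulator of hair follicle stem cells, rose from between 24 and 44.9 to between 67.2 and 109 CPM (log2 fold change 1.32 ± 0.21, adjusted p = 0.00369). Lgr6, a marker of upper follicle stem cells, fell from between 73.1 and 158 to between 26.5 and 49.7 CPM (log2 fold change −1.58 ± 0.25, adjusted p = 0.00353). Lgr5, which drives the Cre, overlapped between groups at 3.04, 10.8 and 99.9 CPM in the controls and 46.6 to 107 CPM in the tumors. Of 19 Wnt ligands and targets, 0 were above (2 without control library 3) and 2 below (7 without control library 1). Axin2, a target of Wnt signaling, fell from between 2.05 and 20.3 to between 0.671 and 1.97 CPM (log2 fold change −3.13 ± 0.60, adjusted p = 0.00745). Of 14 Notch pathway genes, 0 were above (1 without control library 1) and 2 below (1 to 3 with 1 library left out). Jag2, a Notch ligand, fell from between 89.1 and 133 to between 25.6 and 52.3 CPM (log2 fold change −1.24 ± 0.21, adjusted p = 0.00488).

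Cell cycle genes were mixed and depended on single libraries. Of 30 DNA replication genes, 5 were above and 0 below, but 14 were above without control library 1, 3 without ALKKRAS 2, 2 without control library 3 and 1 without control library 2. Of 27 mitosis genes, 1 was above (4 without control library 1). Rrm2, a subunit of ribonucleotide reductase, measured 145, 59.5 and 81.7 CPM in controls, 218, 272 and 243 CPM in ALK tumors and 161, 184 and 189.6 CPM in ALKKRAS tumors (log2 fold change 1.13 ± 0.26, adjusted p = 0.0161). Control library 1 lay close to its lowest tumor. The cyclin-dependent kinase inhibitor Cdkn2b rose and measured 0.695, 9.25 and 9.6 CPM in controls, 80.1, 49.8 and 81.7 CPM in ALK tumors and 182, 146 and 92.7 CPM in ALKKRAS tumors (log2 fold change 3.94 ± 0.75, adjusted p = 0.00735). Ccnd2, cyclin D2, fell and measured 1588, 1848 and 1408 CPM in controls, 571, 612 and 715 CPM in ALK tumors and 977, 891 and 617 CPM in ALKKRAS tumors (log2 fold change −1.16 ± 0.18, adjusted p = 0.00294). Cdkn2a, a tumor suppressor next to Cdkn2b, had 1 read in the controls and stayed at 0.0641 to 1.04 CPM in the tumors, a ratio of 44.1 (95% exact Poisson interval 7.91 to 1741). Among 25 p53 targets, 7 were above and 2 below. Pmaip1, a pro-apoptotic protein, rose from between 14.7 and 30.4 to between 72.3 and 139.8 CPM (log2 fold change 2.03 ± 0.30, adjusted p = 0.00275). Ccng1, cyclin G1, rose from between 76.4 and 88.6 to between 141 and 239.6 CPM (log2 fold change 1.27 ± 0.17, adjusted p = 0.00157). Sesn1, a stress sensor, fell from between 50.9 and 58.7 to between 19 and 30.9 CPM (log2 fold change −1.18 ± 0.18, adjusted p = 0.00321).

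**Figure D4:**
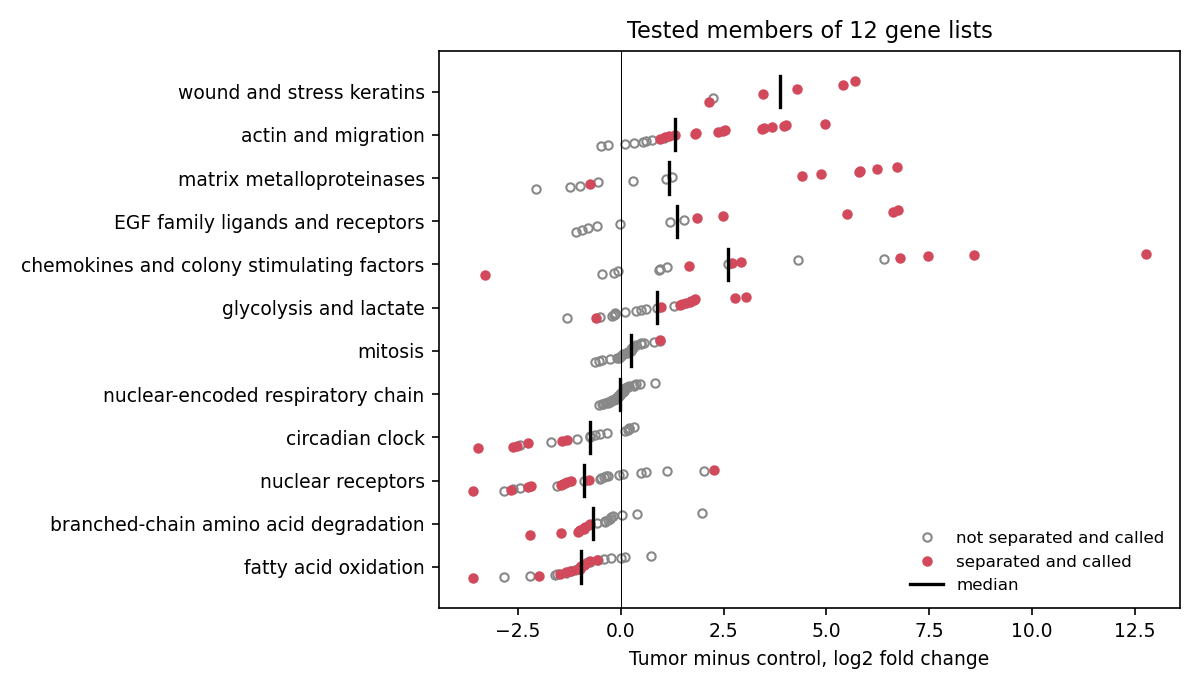
Each point is 1 tested gene of a list on a log2 scale of tumor over control, filled where the gene was separated and called and open otherwise, with a line at the median, for 12 lists. Glycolysis, actin and chemokine genes lie mostly to the right of 0, fatty acid oxidation, branched-chain amino acid and clock genes lie mostly to the left, and the respiratory chain centers on 0.

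The comparison of ALKKRAS with ALK tumors asked whether the additional allele of the ALKKRAS mice moved the shared genes further. Of all 14508 genes, 0 (0%) were called between the genotypes by edgeR's quasi-likelihood test, the smallest adjusted p being 0.488, while DESeq2 called 21 and edgeR's likelihood ratio test 10, of which 8 and 3 were in the program as each of these tests drew it. At an unadjusted p below 0.05 there were 809 genes (5.58%), and within the program 184 of 2653 (6.94%). The rule saw the values of all 6 tumors and leaves out a gene when 1 tumor group crosses the controls, so that the values within the program are a description and not an independent test. The genotype difference had a median of 0.01 for the genes above and 0.07 for the genes below, on the log2 scale. Its typical size was small beside its error: the median size was 0.32 above and 0.21 below, with median 95% half-widths of 0.98 and 0.60. The 95% interval lay within −1 and 1 for 562 of the 1586 genes above and for 680 of the 1067 below, and for the remaining genes it reached beyond a 2-fold difference. Among the genes above, 806 were higher in ALKKRAS and 780 lower, and among the genes below 622 were higher and 444 lower.

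The program genes with the smallest p between the genotypes did not pass the adjustment. Ass1, an enzyme of arginine synthesis, was higher in ALK tumors, at 135, 146 and 115 CPM in controls, 577, 466 and 642 CPM in ALK tumors and 289, 343 and 309 CPM in ALKKRAS tumors (log2 difference −0.84, 95% interval −1.23 to −0.44, unadjusted p = 0.000951). Pkm also lay higher in ALK tumors (log2 difference −0.56, 95% interval −0.93 to −0.19, unadjusted p = 0.00735), as did Ldha (log2 difference −0.55, 95% interval −1.01 to −0.09, unadjusted p = 0.0249). In the other direction, Prss53, a serine protease of the hair follicle, measured 4.94, 7.41 and 4.21 CPM in controls, 27.5, 21.8 and 38.9 CPM in ALK tumors and 78.7, 67.8 and 49.9 CPM in ALKKRAS tumors (log2 difference 1.15, 95% interval 0.49 to 1.82, unadjusted p = 0.00346). Krt19, a keratin of simple epithelia and bulge cells, measured 0.659, 1.03 and 1.7 CPM in controls, 2.22, 5.45 and 3.94 CPM in ALK tumors and 49.4, 48.8 and 4.32 CPM in ALKKRAS tumors (log2 difference 3.15, 95% interval 1.30 to 5.0, unadjusted p = 0.00395). ALKKRAS 3 lay among the ALK tumors. Ivl, involucrin of the cornified envelope, measured 25.8, 31.8 and 14.1 CPM in controls, 36.9, 41.9 and 48.3 CPM in ALK tumors and 143, 73.6 and 76.8 CPM in ALKKRAS tumors (log2 difference 1.20, 95% interval 0.43 to 1.98, unadjusted p = 0.00672). With an adjusted p of 0.488 or more, none of these is a called difference.

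**Figure D5:**
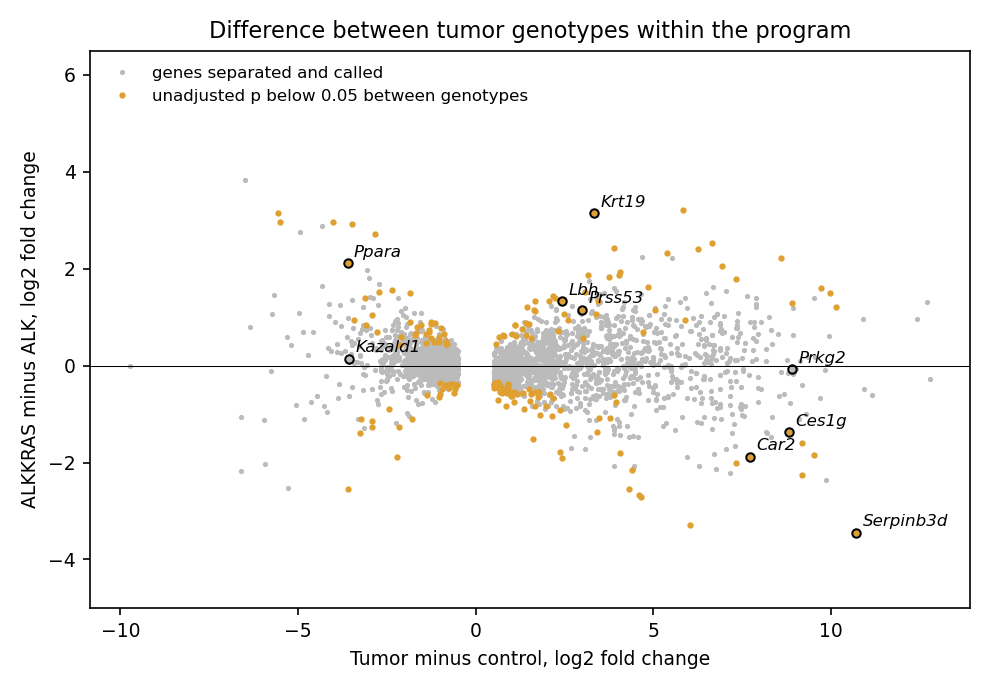
Each point is 1 program gene, with the log2 fold change of tumor over control on the horizontal axis and the log2 difference ALKKRAS minus ALK on the vertical axis, orange where the genotype difference had an unadjusted p below 0.05. The cloud lies around 0 on the vertical axis at both ends of the horizontal axis, and 184 of the 2653 points are orange.

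The edge of the rule shows how fine the separation can be. Just inside above lay Arhgap21, with a highest control of 20.2 and a lowest tumor of 20.2 CPM, and Lta4h, with 93.3 and 93.3 CPM. Just outside lay Ufc1, with a highest control of 72.6 and a lowest tumor of 72.6 CPM, and Fgb, the fibrinogen beta chain, which had no read in the controls or the ALK tumors but 34.1, 87.6 and 0.77 CPM in the ALKKRAS tumors. Just inside below lay Kif13a, with a lowest control of 20.9 and a highest tumor of 20.8 CPM, and just outside lay Lzts2, with 28.2 and 28.3 CPM. The control nearest to the tumors was library 1 for 37.5% of the program above and 47.6% of the program below, library 2 for 24.0% and 16.4%, and library 3 for 38.5% and 36%. The tumor nearest to the controls was seldom ALKKRAS 2 (7.19% above and 7.78% below) or ALK 1 (9.39% and 7.22%). Of the 451 genes called lower without being separated, 281 would separate without control library 1.

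Markers of other cells were measured beside the program. Epcam, on which the cells were sorted, lay at 215.5 to 443 CPM in the controls and 452 to 1067 CPM in the tumors, and the sum of 9 keratinocyte markers overlapped, at 21906 to 44143 and 22042 to 36422 CPM. Of 8 markers of Langerhans and dendritic cells, 7 were in the program above and their sum went from 22.9 to 72.0 CPM in the controls to 346 to 624 CPM in the tumors. Most of that sum came from genes of MHC class II, with Cd74 at 97.3 to 142 CPM in the tumors, while Cd207, the defining Langerhans marker, overlapped between groups at 0 to 1.94 and 0.256 to 5.29 CPM. The 12 neutrophil and macrophage markers summed to 8.16 to 14.1 CPM in the controls, where 5 of them were at 0 in every library, and to 21.5 to 65.6 CPM in the tumors, with 4 of 10 tested in the program. Ptprc, which encodes the CD45 used for exclusion, was at 0 in the controls and at 0.128 to 2.08 CPM in the tumors. The 9 endothelial markers summed to 2.74 to 7.73 and 15.6 to 26.6 CPM, with 2 of 4 tested in the program (1 without control library 2, ALK 1, ALK 2 or ALKKRAS 2), among them Pecam1, the excluded CD31, at 0.649 to 1.9 and 6.42 to 13.2 CPM. Pdgfra, the excluded CD140a, was at 0 to 0.324 CPM in the controls and 0.417 to 1.03 CPM in the tumors without passing the test (adjusted p = 0.0942), so that all 3 markers used for exclusion lay higher in every tumor than in every control. The 8 melanocyte markers summed to 27.8 to 103 CPM in the controls, to 545 and 666 CPM in ALK 2 and ALK 3, which stood apart, and to 40.8 to 178 CPM in the other tumors, with 0 in the program. Markers of T cells overlapped, at 7.35 to 11 and 6.55 to 15.6 CPM, and those of Schwann cells were lower in the tumors, at 92.7 to 97 and 31.4 to 78.6 CPM. The part of such cells in the cytokine, MHC and matrix genes of the program was not tested.

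The program was spread over the genome with a few clusters. The share of tested genes in the program above ran from 7.85% on chromosome 17 to 20.1% on chromosome 18 among the autosomes and X, and was 0 for the 13 mitochondrial and 6 Y-linked genes tested. The latter held a run of 22 neighboring genes of the gamma protocadherin cluster (18:37661793 to 37841873, GRCm38), cell adhesion genes whose models share their last exons, so that these 22 were counted from overlapping reads and are not independent. Smaller runs above were 7 genes from Prr9 to Sprr2e on chromosome 3 (92122204 to 92353449), 6 genes around Stfa1 on chromosome 16 and 6 around Ctla2a on chromosome 13. Below, 5 neighbors on chromosome 14 included Psme1 and Psme2, which encode the proteasome activator PA28 and each kept their call in 3 of the 9 fits with 1 library left out. Proteins were encoded by 98.5% of the program genes and by 96.8% of all genes tested.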

How the data were processed

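RNA of sorted ear tumor cells (3 ALK and 3 ALKKRAS mice) and ear keratinocytes (3 Cre-negative mice) was sequenced as poly-A libraries, and groups were taken from the sample labels, with 0 samples unassigned. The authors deposited raw read counts per gene for 25700 Ensembl identifiers, without normalization or pooling. The submitters' processing notes name bcl2fastq 2.19, Trimmomatic, STAR 2.5.4b, featureCounts, edgeR and GRCm38.p5, and the use of strand and the annotation release are not given in the sources used here, so that overlapping genes cannot be told apart. Symbols were taken from GENCODE M21 (25587 identifiers found), and for 5 repeated symbols the identifier with most counts was used.

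Counts of all 9 libraries were fitted in R 4.3.3 with edgeR 4.0.16 (TMM scaling, robust quasi-likelihood test, and filterByExpr, which asked for 10 counts in a group and 15 in all, biological coefficient of variation 0.402). The contrast was the mean of both tumor genotypes minus the controls, and a gene was called at an adjusted p below 0.05 and a log2 fold change beyond 0.5. The program required in addition that all 6 tumors lay strictly on one side of all 3 controls in TMM-scaled CPM. The same contrast was run with DESeq2 1.42.0, with a likelihood ratio test, with 2 other scalings, with other filters, with the replicate number as a block and without each library. The pipeline was tested on simulated counts. P values measure the spread between mice. No pair of libraries agreed within counting noise (chi-square per degree of freedom 45.9 to 442).

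The members and gene lists were chosen with earlier results of these data known. Named genes were the 15 largest changes and 10 widest gaps in each direction with a mean of at least 10 CPM, list members with the widest gaps or needed to account for a list, the smallest p between genotypes, genes at the edge of the rule and markers. The choice of those described was made with their values in view. The authors' own comparisons were not used. Some genes that this rule names are not reported here.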

Additional observations from a re-analysis of the deposited data

Results flagged for a closer look

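Of the genes named in the report, 162 were checked for a tumor library far from the other 5 (Dixon's test at the 95% level), and 13 were flagged, where chance flags about 1 in 20. Il19 stood at 279.5 CPM in ALK 1 beside 25 to 79.3 CPM in the other tumors. Mmp13 stood at 322.4 CPM in the same tumor beside 64.2 to 106 CPM, and Csf3 at 364.6 CPM beside 15.2 to 133 CPM, so that 3 of the 13 were high in ALK 1. In ALKKRAS 3, Sprr1b stood at 751.4 CPM beside 195 to 361 CPM, Cnfn at 155.3 CPM beside 26 to 58 CPM and Klk13 at 95.24 CPM beside 34.5 to 56.3 CPM. The same tumor had the highest value of Sema3d, a gene that fell, at 3.296 CPM beside 0.5 to 1.54 CPM. In ALKKRAS 1, Prl2c3 stood at 87.94 CPM beside 12.6 to 31.7 CPM and Dynap at 124 CPM beside 13.4 to 39.3 CPM. Lyz2 stood at 31.47 CPM in ALKKRAS 2 beside 1.47 to 12.7 CPM. In ALK 3, Prr9 was high at 100.4 CPM beside 22.1 to 44.5 CPM, Cd74 was high at 142.1 CPM beside 97.4 to 112 CPM, and Jag2 was low at 25.62 CPM beside 44.9 to 52.4 CPM.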

How the results depend on the processing

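The count of genes called higher (1722) became 1142 with a minimum mean of 10 CPM and ranged from 1100 to 1900 with 1 library left out, lowest without control library 2. The count called lower (1518) ranged from 762 to 1835, with 762 without control library 2, 880 without ALKKRAS 2 and 988 without ALK 1. DESeq2 called 2384 higher and 1883 lower, with 27 adjusted p given as NA, and the likelihood ratio test called 2115 and 1882. The separated genes above (2088) numbered 529 with a 2-fold gap, 1391 with the 10 CPM minimum and 2187 to 3012 with 1 library left out. Those below (1500) numbered 109 with a 2-fold gap and 1531 to 2943, 2943 without control library 1. At fixed CPM and a fixed set of genes, leaving out a library can only add separated genes, but each fit also redid the filter and the scaling. With the 3 tumors of high Y-linked levels, an alternative added after seeing the data in which ALKKRAS keeps 1 library, 284 were called higher, 115 lower, 3137 separated above and 2393 below, and 83 of 162 named genes kept their call. Between genotypes, where 0 genes were called, an unadjusted P below 0.01 gave 39 program genes (128 of all genes), DESeq2 8 (21), the likelihood ratio test 3 (10) and leaving out 1 library 0 to 1 (0 to 1). With the replicate block, 1647 were called higher and 1407 lower. Deviations from the group mean correlated at −0.134 to 0.237 between same-numbered libraries of different groups, and at −0.35 to 0.286 between the others. The libraries numbered 3 correlated with each other at 0.138 to 0.237. Whether the numbers mark related libraries cannot be told from these values. The cause of the shifts in the counts was not tested. In every leave-one-out fit, 951 genes of the program above (60.0%) and 616 below (57.7%) were called. Of the 162 named genes, 139 were called in all 9 such fits, 9 in 8, 3 in 7 (Krt19, Pias3 and Cdkn2a), 3 in 6 (Krt13, Sprr1b and S100a6), Ptprc in 5, Slpi and Il6st in 4, Mmp15, Socs2, Psme1 and Psme2 in 3 and Slc16a3 in 1.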
